A study of Mus musculus with 41 samples.

Results

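The mRNA levels of the nuclear-encoded subunits of the mitochondrial respiratory chain and ATP synthase were examined in lung and liver of mice that had inhaled titanium dioxide nanoparticles (nanoTiO2) or air. Members were taken by gene name, as every non-control spot named Nduf followed by a, b, c, s or v, Sdha to Sdhd, Uqcr, Cox4 to Cox8 followed by a, b or c, or Atp5. This gave 79 genes on 109 array features, of 27962 gene names and 41174 features in all. Complex I was represented by 36 genes, complex II by 4, complex III by 7, complex IV by 15 and ATP synthase by 15. The same names also brought in Ndufaf1, an assembly factor of complex I, and Atp5s, a factor related to ATP synthase. No measured value entered this choice.

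Female C57BL/6 mice (C57BL/6BomTac per the methods) inhaled nanoTiO2 at 40 mg/m3, as the labels give it, for 1 h a day on 11 days, or were control (air exposed) mice, and tissue was taken 5 days after the last exposure. Per the methods the animals were time-mated females that had not conceived, and a random slice of the left lung or of the liver was used from each. RNA of 7 exposed and 6 control lungs and of 7 exposed and 8 control livers was labelled with Cy5 and hybridized with a Cy3-labelled reference, a purchased pool of RNA from 11 mouse cell lines, so that each array held 1 mouse. All values below are log2 ratios of the tissue over this reference, and a difference is a difference of such ratios. In both tissues 12 mice were the same animals. Lung and liver were hybridized and scanned on separate slides with different software versions, so tissue and batch cannot be told apart. Exposed samples lay at slide positions 1 and 2 and controls at positions 3 and 4 within each tissue, so position and exposure cannot be told apart either.

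The respiratory chain passes electrons from NADH, through complex I, and from succinate, through complex II, to ubiquinone, then through complex III and cytochrome c to complex IV, which reduces oxygen. Complexes I, III and IV pump protons across the inner mitochondrial membrane, and ATP synthase uses the gradient to make ATP. Most subunits are encoded in the nucleus and are expressed in every tissue, but complex IV (cytochrome c oxidase) has exchangeable forms, of which Cox6a2, Cox7a1 and Cox8b are the heart and skeletal muscle forms, Cox6a1, Cox7a2 and Cox8a their counterparts in other tissues, and Cox6b2 and Cox8c forms known from testis.

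Since nuclear-encoded subunits tended to differ together between the tissues while the muscle forms of complex IV differed the other way, the start regions of member genes were read from RefSeq (mouse build GRCm38.p6), as windows of 300 bases from 250 before to 50 after the annotated start. A window was found for 67 of the 79 genes, 3 of them under another symbol, and none for Cox6a2. Motifs of regulators of mitochondrial genes and of muscle genes were searched on both strands, with overlaps between motifs allowed. The NRF1 motif (GCGCA and GCGC with 1 base between them) stood in the windows of 17 genes, or 25.4%, against 4.6% of all 32841 windows. For GABP (CCGGAAG) the numbers were 17 genes, or 25.4%, against 8.86%. YY1 (AANATGGCG) was found for 10 genes, or 14.9% against 2.38%, and ERR (AAGGTCA) for 8 genes, or 11.9% against 4.72%. For the muscle regulator MEF2 a loose form of the motif was searched, CTA and TAG with any 4 bases between them. These letters were found for 1 gene, Cox5b, or 1.49% against 3.69%. Some members, such as Atp5c1, had 2 windows, and a gene was counted if any of its windows held the motif. Member genes were rich in CpG, with a median of 19 in the richest window of a gene against 7 in all windows. Among members with at least 19 CpG the NRF1 motif was found for 16 of 37 genes, or 43.2%. Of all windows with at least 19 CpG 13.2% held it. With the same limit GABP was found for 21.6% of member genes against 19.4% of all windows, and YY1 for 13.5% against 5.44%. ERR was found for 16.2% against 1.9% and MEF2 for 2.7% against 1.93%, so that for GABP the shares were close. The shares of genes and of single windows are unlike units. Windows of 40 member genes held at least 1 of the motifs, against 21.6% of all windows. A match describes letters and is not a binding site.

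The 5 windows below are shown as the muscle forms Cox8b and Cox7a1 with their counterparts in other tissues, and Sdhd, a membrane anchor of complex II, as a window that held the NRF1, GABP and ERR motifs. They run 5′ to 3′ on the gene's strand, and capitals mark motif letters on either strand. Cox8b lies at chr7:140900397-140900696 (minus strand), Cox8a at chr19:7217567-7217866 (minus), Cox7a1 at chr7:30183921-30184220 (plus), Cox7a2 at chr9:79759804-79760103 (minus) and Sdhd at chr9:50603800-50604099 (minus).
Cox8b: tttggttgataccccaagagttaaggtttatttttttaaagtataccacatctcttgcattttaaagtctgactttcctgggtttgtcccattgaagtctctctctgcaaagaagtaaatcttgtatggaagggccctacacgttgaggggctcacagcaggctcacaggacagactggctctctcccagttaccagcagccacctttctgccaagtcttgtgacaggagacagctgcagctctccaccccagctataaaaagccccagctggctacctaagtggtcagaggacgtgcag
Cox8a: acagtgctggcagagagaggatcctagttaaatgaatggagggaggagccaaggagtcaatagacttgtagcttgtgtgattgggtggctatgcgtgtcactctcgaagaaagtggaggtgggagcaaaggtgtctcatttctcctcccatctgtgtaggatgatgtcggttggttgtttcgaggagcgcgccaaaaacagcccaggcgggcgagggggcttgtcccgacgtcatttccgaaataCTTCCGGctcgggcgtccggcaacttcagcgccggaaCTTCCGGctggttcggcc
Cox7a1: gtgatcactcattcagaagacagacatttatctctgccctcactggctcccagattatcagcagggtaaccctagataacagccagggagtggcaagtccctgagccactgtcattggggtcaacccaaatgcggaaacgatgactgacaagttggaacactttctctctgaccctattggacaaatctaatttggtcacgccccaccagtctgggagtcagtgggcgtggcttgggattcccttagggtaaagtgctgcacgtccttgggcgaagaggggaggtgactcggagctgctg
Cox7a2: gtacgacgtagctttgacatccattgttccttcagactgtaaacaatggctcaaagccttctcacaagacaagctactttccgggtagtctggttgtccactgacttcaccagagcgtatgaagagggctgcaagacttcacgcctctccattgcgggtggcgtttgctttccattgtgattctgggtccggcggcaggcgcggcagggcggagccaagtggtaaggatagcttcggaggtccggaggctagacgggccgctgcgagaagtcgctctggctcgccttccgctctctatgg
Sdhd: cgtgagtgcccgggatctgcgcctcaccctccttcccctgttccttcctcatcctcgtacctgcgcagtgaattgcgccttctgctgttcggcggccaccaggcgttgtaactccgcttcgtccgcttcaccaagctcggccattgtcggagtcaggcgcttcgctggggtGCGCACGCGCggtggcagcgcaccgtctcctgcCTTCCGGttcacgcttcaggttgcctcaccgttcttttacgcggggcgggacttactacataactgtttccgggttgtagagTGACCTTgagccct
The window of Cox8b held 2 CpG, the fewest of all member genes, and that of Cox7a1 held 7. Neither held a motif, and the same was true of Cox6b2, with 10 CpG. Cox8a, with 19 CpG, held the GABP motif at 2 positions, whereas Cox7a2, with 20 CpG, held none, so that the presence of these letters did not separate the pairs. Sdhd held 29 CpG.

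Members were bright on these arrays: 77 genes were well above background in Cy5 on all 28 arrays. Cox8c was well above background on none of them, and Cox8b on all 13 lung arrays but on 5 of 7 exposed and 4 of 8 control liver arrays. No feature was named for the subunits encoded by mitochondrial DNA. The scanner software marks spots as outliers, and these were left out. On bright member spots the marks mostly concerned the local background beside the spot, which left Cox6a1 with values on 1 of 7 exposed and 3 of 6 control lungs and on no liver array, and Ndufs5 on 1 array of each lung group, on 1 control liver and on no exposed liver. For these genes, and for Cox6c and Cox8a, values are given also with the marked local backgrounds replaced by the array's median background, an alternative chosen after the data had been seen, as was the naming of Cox6c. The markers fitted the labelled tissues: 8 of 8 tested hepatocyte markers were lower and 8 of 8 tested lung epithelium markers higher in control lung than in control liver.

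Between the control tissues, respiratory chain mRNA was lower in lung than in liver. Of 78 members tested, 66 were lower and 5 higher in lung (limma, adjusted p under 0.05), against 57.8% of all 41149 features tested, with 28.5% of all features lower and 29.3% higher. The median member difference was -1.04, or 2.05-fold lower in lung, while the median over all features was -0.02. The comparison of exposed lung with exposed liver used other mice and arrays, and there 65 of 77 members were lower and 5 higher, with 61.1% of all features called, 30.4% lower and 30.7% higher. At an unadjusted p under 0.05 the members numbered 72 of 78 in control and 70 of 77 in exposed mice, against 60.9% and 64% of all features. The median member difference in exposed mice was -0.94, against -0.02 for all features. On single arrays 55.1 to 70.5% of all spots were well above background, while 77 members were so on every array. The shares and medians over all features thus include dim features, and a share among bright features alone is not given. In bulk tissue, fewer cells of a type and less RNA per cell cannot be told apart.

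The reference RNA was the same on the slides of both tissues, so its own channel was also compared between the slides. In Cy3, 51 of 78 members were called between the control slides (39 higher, 12 lower), against 42.4% of all features, with a median of 0.13 and a range from -0.71 to 0.71. Between the exposed slides 52 of 77 were called, against 45.0% of all features, and the range was -0.67 to 0.81. Over all features the Cy3 difference ran from -6.95 to 8.70 between the control and from -6.41 to 8.72 between the exposed slides. These extremes exceed the tissue difference of any member, and their cause was not tested. The counts that follow use the range of the members alone. Their limit is a difference in the Cy3 channel alone, quantile normalized between arrays. The tissue differences are differences of ratios normalized within arrays, which is an unlike measure. The share of all features beyond this limit is not given, so the counts do not set the members apart from other features. Lung minus liver differences larger than the largest Cy3 difference of any member were found for 57 of the 71 called members in control mice (53 lower, 4 higher) and for 51 of 70 in exposed mice (47 lower, 4 higher). The 4 higher ones were Cox6a2, Cox6b2, Cox7a1 and Cox8b in both comparisons. Called differences below that size, such as that of Atp5l, are no larger than what the same RNA showed between slides for a member.

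**Figure D1:**
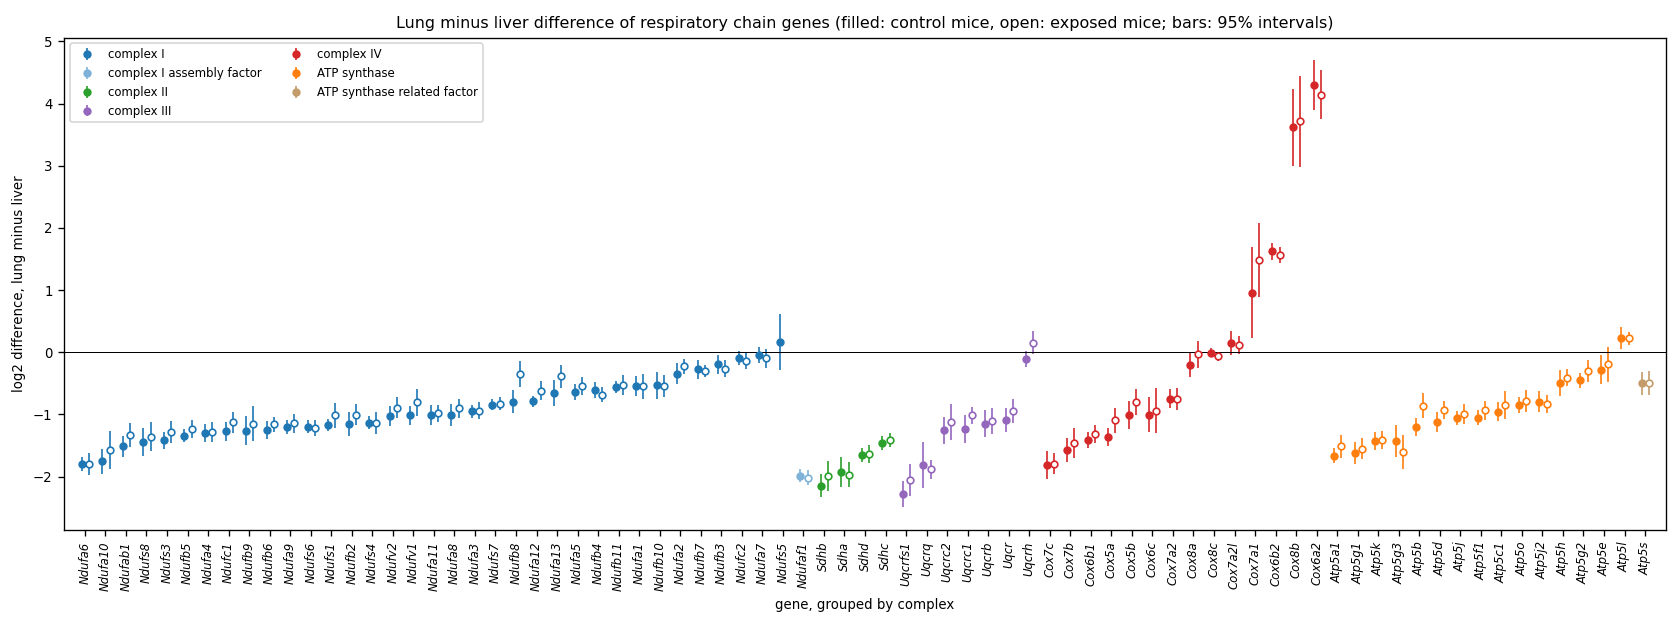
Lung minus liver difference (log2, y axis) of the member genes with a value, but for 1 not reported here (x axis, grouped by complex) in control mice (filled points) and exposed mice (open points), with 95% intervals. Most genes of every complex lie between 0 and -2.29, and Cox6a2, Cox8b, Cox6b2 and Cox7a1 of complex IV lie above 0, up to 4.30.

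In complex I, the NADH dehydrogenase, 33 of 36 genes were lower in control lung and none was higher, with a median of -1.01. The lowest difference was that of Ndufa6, an accessory subunit, whose log2 ratios were -1.18 to -0.93 (median -0.98) in 6 control lungs and 0.70 to 0.85 (median 0.80) in 6 control livers. The lungs lay below every liver, a difference of -1.79 (95% interval -1.90 to -1.69, limma adjusted p = 1.1e-13), and in exposed mice the difference was again -1.79 (-1.97 to -1.62). Ndufa10, another accessory subunit, differed by -1.75 (-1.95 to -1.55) in control and -1.57 (-1.88 to -1.27) in exposed mice. Core subunits were also lower, Ndufs8 by -1.44, Ndufs3 by -1.42, Ndufs1, the largest iron-sulfur subunit, by -1.17, and Ndufv1, which binds NADH, by -1.02. Ndufv2 and Ndufs7 differed by -1.02 and -0.84. Ndufaf1, the assembly factor, ranged from -0.91 to -0.67 in control lungs and from 1.11 to 1.35 in control livers, a difference of -1.99.

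Ndufc2 (-0.09) and Ndufa7 (-0.05) did not pass the test, with 95% intervals of -0.20 to 0.02 and -0.17 to 0.08. The second feature of Ndufa7 was called lower, at -0.71 in control and -0.73 in exposed mice. Ndufs5, an accessory subunit, rested on 1 lung and 1 liver in the main values, and with the marked backgrounds replaced it was higher in lung by 0.25 (0.12 to 0.38) in control and by 0.30 in exposed mice, a size within the Cy3 range. Several genes of complex I had features that differed. The 4 features of Ndufab1, the mitochondrial acyl carrier protein, ranged from -2.29 to -0.01 in control mice. In these mice 1 of 2 features was near 0 and not called for Ndufs1 (-0.09), Ndufs4 (0.02), Ndufa3 (-0.09) and Ndufb8 (-0.07). In exposed mice the 2 features of Ndufs1 were called in opposite directions, at -1.01 for the counted feature and 0.10 for the other.

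Complex II, succinate dehydrogenase, had the lowest median, -1.79, and all 4 of its genes were lower in lung. Sdhb, the iron-sulfur subunit, was at -0.83 to -0.23 (median -0.50) in control lungs and at 1.33 to 1.76 (median 1.65) in control livers. Exposed lungs were at -0.74 to 0.19 and exposed livers at 1.495 to 1.77, so that lung and liver did not overlap in either group. The difference was -2.15 (-2.33 to -1.96), or 4.43-fold, in control and -1.99 (-2.24 to -1.74) in exposed mice. Sdha, the flavoprotein that oxidizes succinate, differed by -1.92 and -1.97. The membrane anchors Sdhd and Sdhc differed by -1.65 and -1.46 in control mice. A second feature of Sdhc differed by -0.07.

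In complex III, cytochrome bc1, 6 of 7 genes were lower, with a median of -1.23. Uqcrfs1, the Rieske iron-sulfur protein that takes electrons from ubiquinol, had the lowest difference of all members. It was at -0.80 to -0.32 (median -0.36) in control lungs and at 1.57 to 2.03 (median 1.83) in control livers, and the difference was -2.29 (-2.50 to -2.08), or 4.88-fold. In exposed mice it was -2.05 (-2.30 to -1.79). The core proteins Uqcrc1 and Uqcrc2 differed by -1.23 and -1.26. Uqcrq, a small subunit, differed by -1.82, from 3 lungs and 2 livers with unmarked spots, while its second feature differed by -0.47 in control and -0.39 in exposed mice. Uqcrh, the hinge protein that helps cytochrome c bind, was at 0.24 to 0.47 in control lungs and at 0.34 to 0.59 in control livers. These overlapped (difference -0.11, -0.24 to 0.02), and in exposed mice the difference was 0.16. The second feature of Uqcrh was called lower, at -0.28 in both control and exposed mice.

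For ATP synthase 14 of 15 genes were lower, with a median of -1.05. Atp5a1, the alpha subunit, was at -0.60 to -0.40 (median -0.53) in control lungs and at 1.00 to 1.29 (median 1.18) in control livers, without overlap, a difference of -1.67 (-1.79 to -1.55). The catalytic beta subunit, Atp5b, differed by -1.19 in control and -0.86 in exposed mice. Atp5g1, which encodes a form of the membrane ring subunit c, differed by -1.62, Atp5d by -1.12, Atp5c1, the central stalk subunit gamma, by -0.95 and Atp5o, in the outer stalk, by -0.84. Atp5l, the small subunit g, was higher in lung by 0.23 (adjusted p = 0.025) in control and by 0.22 in exposed mice, but lower, by -0.48 and -0.61, when arrays were centred on their medians in place of loess.

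**Figure D2:**
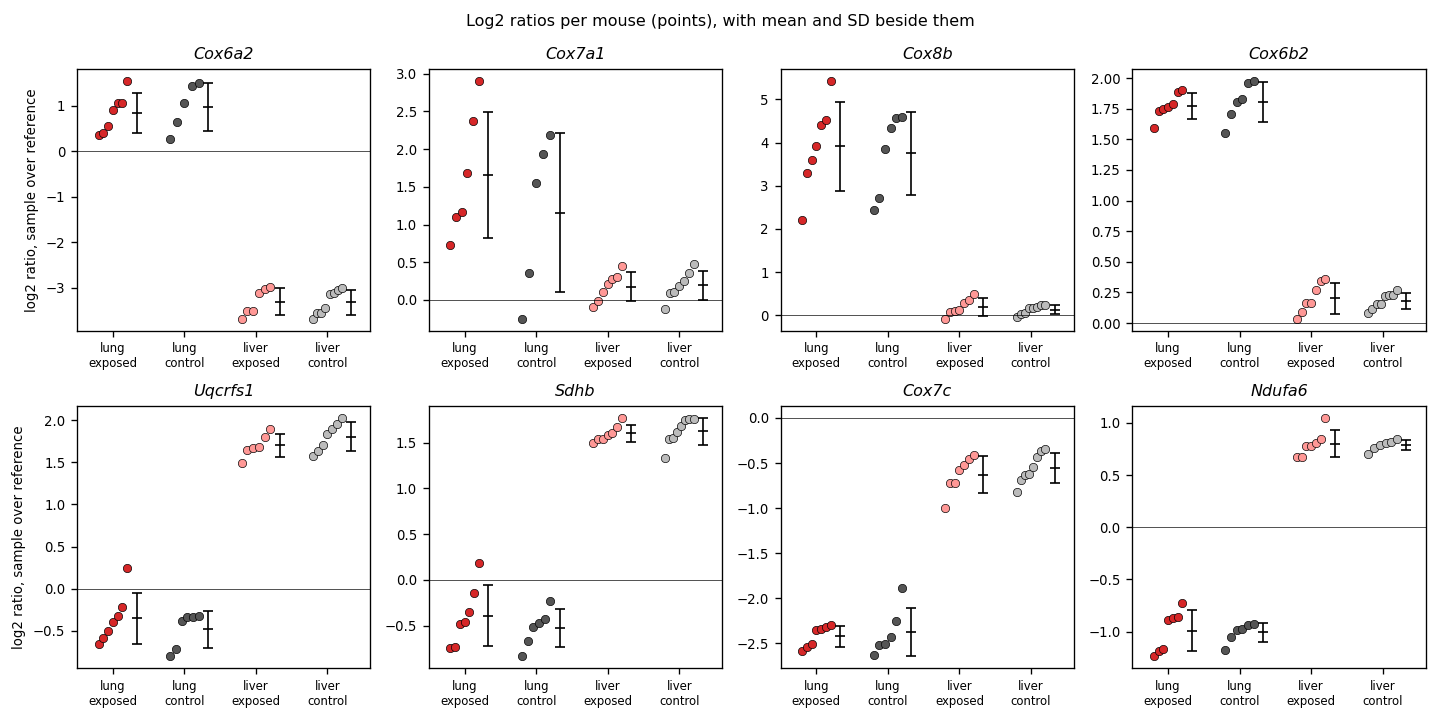
Log2 ratio of tissue over reference (y axis) in each mouse (points) for 4 complex IV forms and 4 other members, by group, with mean and SD beside the points. Lung and liver do not overlap for Cox6a2, Cox8b, Cox6b2, Uqcrfs1, Sdhb, Cox7c and Ndufa6, and they do for Cox7a1.

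Complex IV was divided: 7 of 14 tested genes were lower and 4 higher in control lung, with a median of -0.47. Among the subunits found in most tissues, Cox7c was at -2.63 to -1.89 (median -2.47) in control lungs and at -0.82 to -0.35 (median -0.58) in control livers, a difference of -1.82 (-2.04 to -1.59). Cox7b differed by -1.57, Cox6b1 by -1.41, Cox5a by -1.36 and Cox7a2 by -0.74. A second feature of Cox5a was at 0.02 in control and -0.055 in exposed mice and was not called. Cox6c differed by -1.01 on the few unmarked spots and by -0.65 (-0.80 to -0.50) with backgrounds replaced. Cox6a1 could be compared only with backgrounds replaced, and was then lower by -0.27 (-0.42 to -0.12) in control and -0.24 in exposed mice. Cox8a was at -0.20 (adjusted p = 0.068) in control and -0.03 in exposed mice, but at 0.06 and 0.17 with backgrounds replaced, where the second was called. Cox7a2l, which takes part in joining complexes III and IV, did not pass the test (0.15, -0.04 to 0.34).

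The forms that were higher in lung were the 3 muscle forms and Cox6b2. Cox6a2, in control lungs with unmarked spots, was at 0.27 to 1.501 (median 1.05, n = 5), and in 8 control livers at -3.67 to -3.00 (median -3.30). Exposed lungs were at 0.35 to 1.55 and exposed livers at -3.68 to -2.97. Every lung thus lay above every liver, by 4.30 (3.89 to 4.70), or 19.7-fold, in control and 4.14 (3.75 to 4.54) in exposed mice.

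Cox8b was at 2.43 to 4.60 (median 4.09) in 6 control lungs and at -0.03 to 0.24 (median 0.16) in 8 control livers. In exposed mice it was at 2.21 to 5.43 in lung and -0.08 to 0.50 in liver. The groups did not overlap, and the differences were 3.62 (3.00 to 4.24), or 12.3-fold, and 3.72 (2.99 to 4.45). Its signal was well above background on every lung array, but on 4 of 8 control and 5 of 7 exposed liver arrays. The size of these differences thus rests in part on liver signals near background. Cox6b2 was at 1.55 to 1.98 in control lungs and at 0.08 to 0.27 in control livers, a difference of 1.62 (1.49 to 1.75), and 1.57 in exposed mice.

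Cox7a1 was at -0.25 to 2.19 (median 1.54) in 5 control lungs and at -0.12 to 0.47 (median 0.19) in 7 control livers, and these overlapped. It differed by 0.96 (0.23 to 1.69, adjusted p = 0.026) in control and 1.48 (0.88 to 2.08, adjusted p = 0.00023) in exposed mice. The call in control mice was lost with median centering (adjusted p = 0.19) and in the Cy5 channel alone (adjusted p = 0.084). Cox8c was not well above background on any array, and no difference is given for it.

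The muscle forms varied between lungs in step with heart muscle markers, and Cox7a1 and Cox8b also with brown fat markers. The mean log2 ratio of the 20 heart muscle markers ran from 0.51 to 2.55 in control and from 1.39 to 2.70 in exposed lungs, and from -0.38 to -0.07 in livers. Between the control tissues 16 of the 20 were higher and 2 lower in lung, with a median of 2.03. In control lungs Myh6, the alpha myosin heavy chain of heart, had a median of 3.29, the muscle oxygen store Mb of 3.34 and the thin filament gene Tnnt2 of 2.34, and the lung minus liver differences of these genes in control mice were 3.09, 3.00 and 3.58. In the mouse, heart muscle cells line the large pulmonary veins. Brown fat markers also varied, with a mean of 0.43 to 1.79 in control and 0.64 to 2.42 in exposed lungs. In livers this mean was 1.01 to 1.31 in control and 1.11 to 1.39 in exposed mice. Between the control tissues 3 of 9 brown fat markers were higher and 3 lower in lung, with a median of 0.06. Among them Ucp1, the defining gene, was well above background in 2 control and 3 exposed lungs and in no liver. Ratios of Ucp1 reached 6.08 in an exposed lung. The skeletal muscle markers were high in 1 lung, that of control mouse 34, with a mean of 1.64, and lay below 0 in the others.

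Over the 12 lungs with a value, Cox6a2 correlated with the heart muscle mean at r = 0.95 and rho = 0.94 (permutation p = 4e-05 for both), and at r = 0.93 without the 2 lungs farthest from the median of the markers. Within the 7 exposed lungs r was 0.95, and control lungs with a value were too few at 5. For Cox7a1, over 11 lungs, r was 0.96 and rho 0.96 (permutation p = 2e-05, the smallest that 100000 resamples can give, and 6e-05), and 0.92 without the farthest 2. Cox8b followed at r = 0.83 and rho = 0.82 over 13 lungs (permutation p = 0.00048 and 0.0011), with 0.87 within exposed, 0.88 within control lungs and 0.75 without the farthest 2. The lung with the lowest heart muscle mean, control mouse 27, also had the lowest Cox7a1, and with backgrounds replaced the lowest Cox6a2 (-0.13). With backgrounds replaced, r for Cox6a2 and Cox7a1 over all 13 lungs was 0.96 and 0.96. Cox6b2 showed no such relation over the 13 lungs (r = -0.07, rho = -0.13, permutation p = 0.83 and 0.67). Its r was 0.67 within exposed and -0.38 within control lungs (permutation p = 0.1 and 0.45).

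With the brown fat mean, Cox7a1 correlated at r = 0.89 and rho = 0.95, and Cox8b at r = 0.89 and rho = 0.93. The exposed lung with the highest brown fat mean, mouse 13, also had the highest Cox8b (5.43) and Cox7a1 (2.91). For Cox6a2 r was 0.49 and rho 0.62 (permutation p = 0.11 and 0.036, Benjamini-Hochberg adjusted 0.13 and 0.046), and r was 0.75 without the farthest 2 lungs. For Cox6b2 r was 0.24 and rho 0.21 (permutation p = 0.45 and 0.5). The median of the other 74 members correlated with the heart muscle mean at r = 0.73 (rho = 0.83, permutation p = 0.0013 and 0.00078). With the brown fat mean r was 0.87 (rho = 0.81, permutation p = 0.00056 and 0.0011), and without the farthest 2 lungs the 2 r values were 0.63 and 0.79. Within exposed lungs they were 0.72 and 0.96 (permutation p = 0.058 and 0.0024), and within control lungs 0.86 and 0.71 (permutation p = 0.047 and 0.14). In all, 10 relations were computed. After Benjamini-Hochberg adjustment the largest p among those of Cox7a1, Cox8b and the other members was 0.0019 (Pearson) and 0.0016 (Spearman). Since the marker means themselves correlated (r = 0.66, rho = 0.71), their relations to the members are not separate. The part of heart muscle or brown fat in the tissue differences was not tested.

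**Figure D3:**
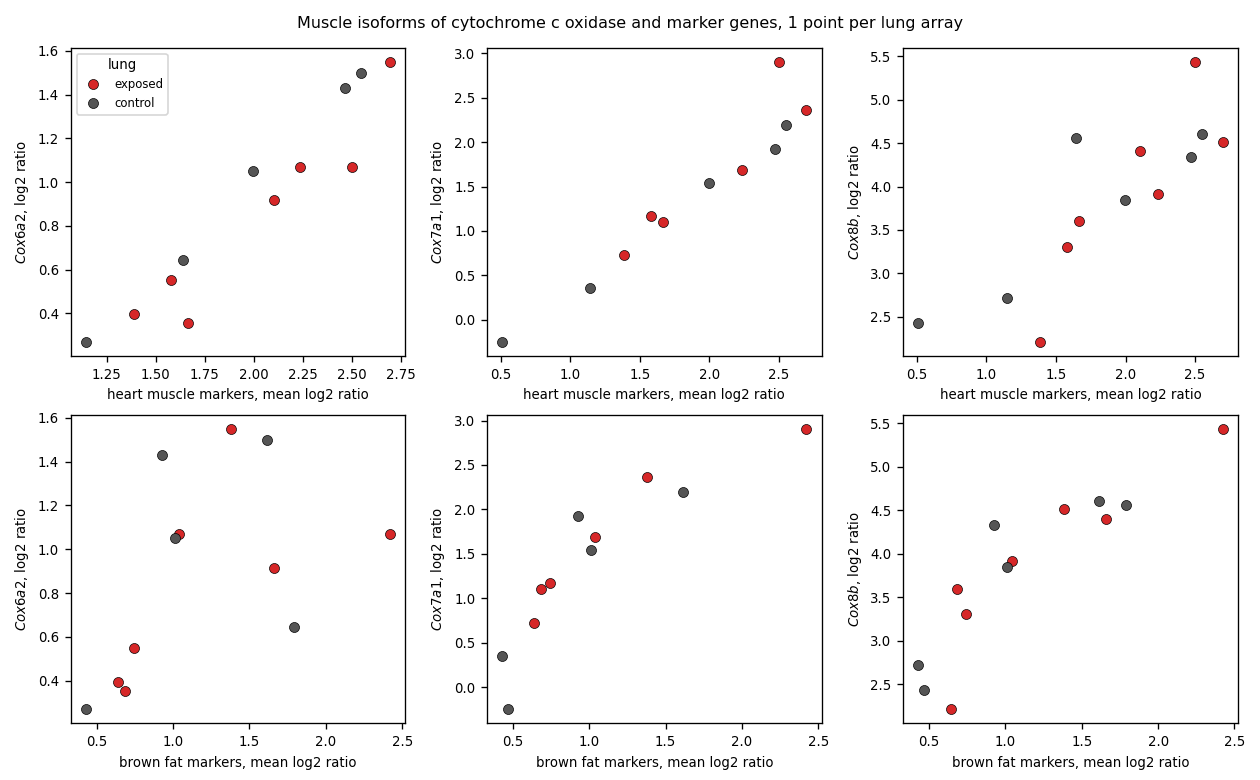
Log2 ratios of Cox6a2, Cox7a1 and Cox8b (y axes) against the mean log2 ratio of heart muscle markers (upper) and brown fat markers (lower, x axes), 1 point per lung array, exposed in red and control in grey. All 3 genes rise with the heart muscle mean, from r = 0.83 to 0.96. With the brown fat mean r is 0.49 for Cox6a2, 0.89 for Cox7a1 and 0.89 for Cox8b.

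Whether nanoTiO2 changed respiratory chain mRNA was asked first in lung, the tissue that received the particles. Of 79 members, each by its counted feature, 0 passed an adjusted p of 0.05 (limma), 6 had an unadjusted p under 0.05, and the lowest adjusted p was 0.44. Of all 109 features of members 0 passed, 9 (8.26%) had an unadjusted p under 0.05, and the lowest adjusted p was 0.24. Over all 41155 features 83 were called, or 0.202%, 74 higher (0.18%) and 9 lower (0.0219%), and 2934, or 7.13%, had an unadjusted p under 0.05. Member differences leaned slightly to the positive side, with 54 positive and 25 negative and a median of 0.03 against 0.0015 for all features. The 95% interval lay within 1.5-fold in both directions for 74 of the 79 genes, so that larger changes of these were outside the intervals. The exceptions were Cox7a1, Cox8b and Cox6a2, which vary between lungs, and Ndufb8 and Ndufs5, which had few unmarked spots. Among the 74 was Cox6a1, with values on 1 exposed and 3 control lungs only.

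Among the counted features of members, that of Atp5b had the lowest p. It was at -0.378 to -0.03 (median -0.30, n = 5) in exposed and at -0.59 to -0.381 (median -0.48, n = 5) in control lungs. The exposed values lay above the control values, narrowly at the edge, and the difference was 0.23 (0.08 to 0.38), or 1.18-fold (limma adjusted p = 0.44). Cox5a, a matrix-side subunit of complex IV, differed by 0.21 (0.01 to 0.41). Cox7a1 had the largest difference, 0.50, with an interval of -0.53 to 1.54. It was at 0.73 to 2.91 in exposed and -0.25 to 2.19 in control lungs, and the groups overlapped widely. Ndufb8, an accessory subunit of complex I, differed by 0.41 (0.09 to 0.73), on 1 exposed lung at -0.28 and 4 control lungs at -0.87 to -0.51.

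On the negative side, Ndufs5 differed by -0.25 from 1 lung in each group, and by 0.01 (-0.11 to 0.12) with backgrounds replaced. Cox6a2 was at -0.14 (-0.65 to 0.38), and at 0.05 with backgrounds replaced, Ndufb3 at -0.08, Cox7a2 at -0.07 and Ndufc2 at -0.06. None passed the test, and the intervals of these 3 lay within -0.22 and 0.08.

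By complex, the median differences in lung were 0.04 for complex I, 0.06 for complex II, 0.03 for complex III, 0.00092 for complex IV and 0.03 for ATP synthase. Marker lists of other cell types differed in direction between exposed and control lungs. All 20 heart muscle markers were positive (median 0.40), as were all 9 brown fat markers (median 0.10) and all 8 hepatocyte markers (median 0.45), and none of these was called. Negative were 8 of 11 skeletal muscle markers (median -0.29), 7 of 8 neutrophil markers (median -0.27), 5 of 6 red blood cell markers (median -0.16), none of them called, and 6 of 8 tested lung epithelium markers (median -0.10). Of 8 macrophage markers 5 were positive and 3 negative (median 0.09). The called markers, named after their values were seen, were Foxj1 of lung epithelium, higher by 0.29, and of macrophages Marco, higher by 0.57, and Siglecf, at -0.70 (limma adjusted p = 0.037, 0.0092 and 0.011). The mean of the hepatocyte markers was 0.28 to 2.01 in exposed and 0.18 to 0.64 in control lungs, with the highest value in exposed mouse 1. Without exposed mouse 13, the lung with the most brown fat signal, the member median was 0.0047, and without control mouse 27, the lung with the least heart muscle signal, 0.0089. Without control mouse 29 it was -0.00047. The part of these cell types was not tested.

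The purchased reference in Cy3 gave 4 called features of 41155 between exposed and control lung arrays, and 0 of 79 members (4 at an unadjusted p under 0.05). Within the hybridization blocks that held both groups the member median was -0.10, 0.03 and 0.14, so its direction differed between blocks. Block 4 of the lung held exposed samples only.

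**Figure D4:**
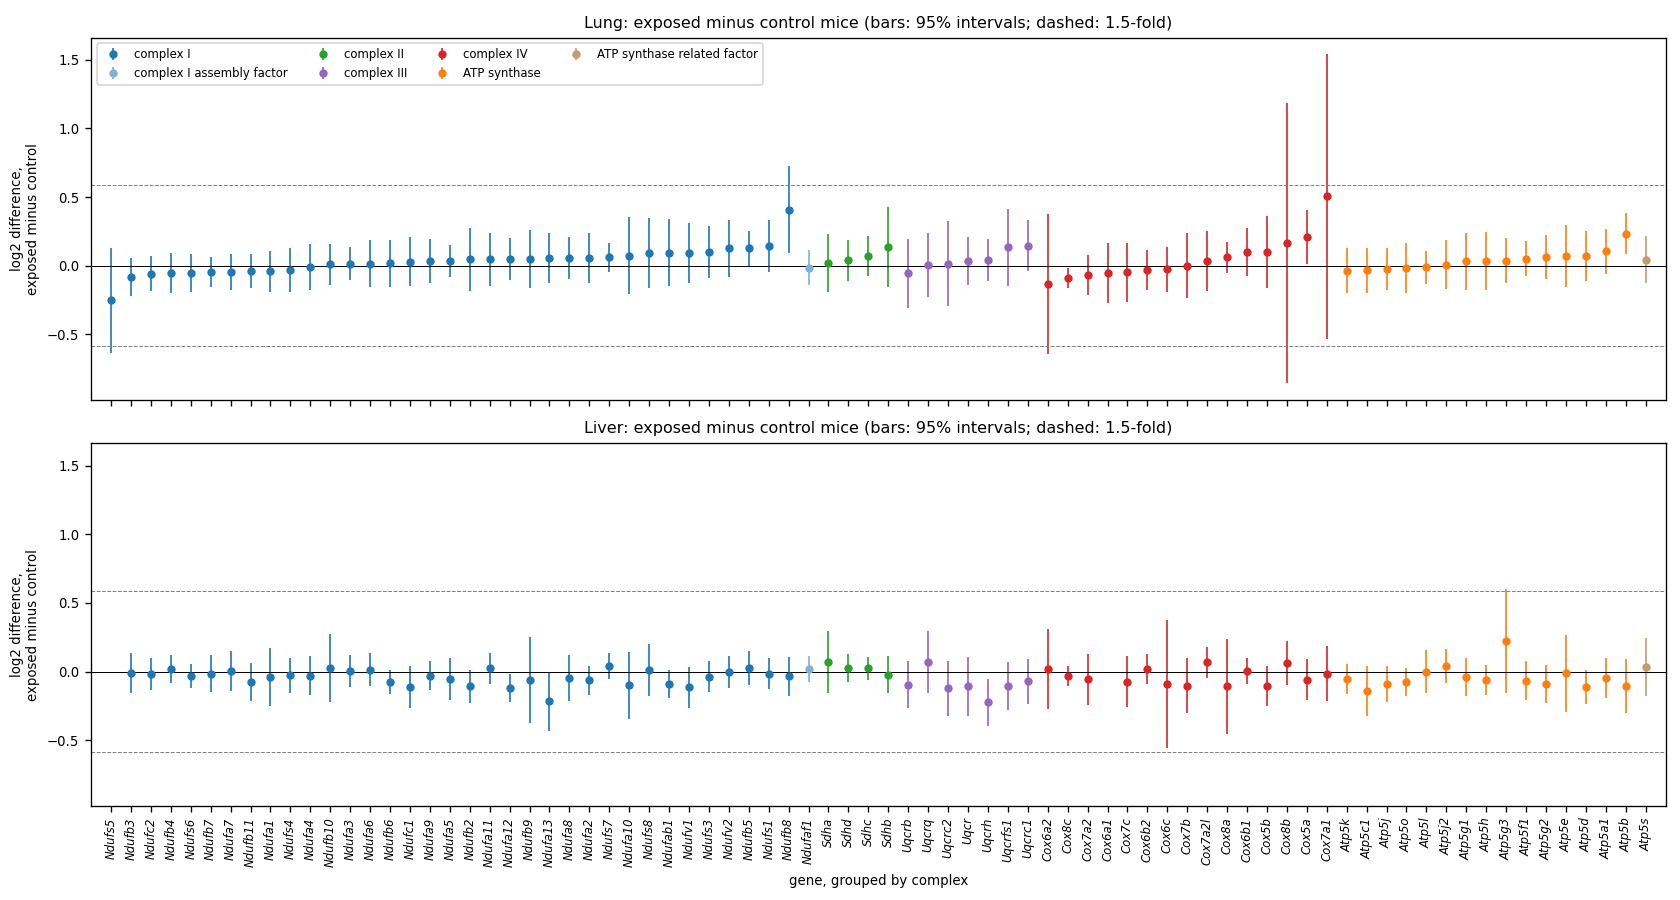
Exposed minus control difference (log2, y axes) of the member genes but for 1 not reported here (x axis, grouped by complex) in lung (upper) and liver (lower), with 95% intervals and dashed lines at 1.5-fold. Points scatter around 0 in both tissues, and the widest intervals are those of Cox7a1, Cox8b and Cox6a2 in lung.

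In liver, no feature of 41143 was called, or 0%, and 1040, or 2.53%, had an unadjusted p under 0.05 (limma). Of 77 members 0 were called and 3 had an unadjusted p under 0.05, 23 were positive and 54 negative, and the median was -0.04 against -0.0039 for all features. The direction of this median was not stable, as it was 0.073 with normexp fitted on all spots, 0.18 with median centering, 0.011 with the authors' table and 0.0033 with the scanner's processed signals. For 76 of the 77 the interval lay within 1.5-fold. The exception was Atp5g3, another form of the subunit c, which was measured in 3 livers of each group (0.22, -0.16 to 0.60). Among the 76, Cox6c was measured in 1 liver of each group, and Cox8a in 1 exposed and 2 control livers. The interval of Cox6c thus rests on the spread of other features and does not bound its change.

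Uqcrh had the lowest unadjusted p. It was at -0.01 to 0.49 (median 0.17) in 6 exposed and at 0.34 to 0.59 (median 0.41) in 6 control livers, with overlap, a difference of -0.22 (-0.39 to -0.05, adjusted p = 1.0). Ndufa13, a subunit of complex I also known as a cell death regulator, was at 0.78 to 1.14 in 4 exposed and at 1.05 to 1.54 in 6 control livers, a difference of -0.22 (-0.43 to -0.0046). Atp5c1 (-0.14), Uqcrc2 (-0.12) and Ndufa12 (-0.12) were the next lowest, and Uqcrq, Sdha, Cox7a2l and Cox8b were between 0.06 and 0.07. All 7 tested hepatocyte markers were negative (median -0.24), none called. In Cy3, 0 of 77 members were called (3 at an unadjusted p under 0.05). Within the 4 blocks the member median was -0.11, -0.07, -0.05 and 0.01.

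The test of the difference between the tissues' exposure effects called 0 of 77 members, with 4 at an unadjusted p under 0.05, against 58 of 41125 features, or 0.141%, called (0.126% higher and 0.0146% lower) and 4.3% at that p. Lung minus liver effects of the members were positive for 58 and negative for 19, with a median of 0.08 against 0.0040 for all features, but the median was -0.050 with normexp fitted on all spots. This contrast was made from the same arrays as the exposure comparisons above. The median by complex was 0.09 for complex I, 0.03 for complex II, 0.14 for complex III and 0.08 for both complex IV and ATP synthase.

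Other genes of the pathway were described from lists. Between the control tissues, 9 of 11 other subunits and electron carriers were lower in lung and none higher (median -1.03). The 11 included Ndufa4 (-1.30), which is also a member and was counted above under complex I by its name. Of the genes that are not members, Cyc1, the heme subunit of complex III, was at -1.27 to -0.86 in control lungs. It was at 0.76 to 1.08 in control livers, a difference of -1.98, and Cycs, cytochrome c, differed by -1.03. Cox4i1, the common form of another complex IV subunit, differed by -0.24 (adjusted p = 0.047), and Cox4i2, its lung form, by 0.03 and was well above background on 3 of 6 control lungs. Of respiratory chain assembly factors 16 of 18 were lower and 1 higher (median -1.08), and of citric acid cycle enzymes 11 of 14 were lower (median -1.08).

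Regulators of mitochondrial genes were less uniform, with 11 of 15 lower and 3 higher and a median of -0.38. Ppargc1a, the coactivator that drives mitochondrial biogenesis, differed by -0.84, Tfam, which packages and transcribes mitochondrial DNA, by -0.59 and the nuclear receptor Esrra by -0.38. Mitochondrial carriers and uncoupling proteins were mixed, with 7 of 11 higher and 3 lower and differences from -1.33 to 3.32. Their median of 0.17 was within the Cy3 range of the members. Between the exposed tissues 6 were higher and 3 lower (median 0.12). With exposure, none of these lists had a called gene in either tissue. In lung all 14 citric acid cycle genes were positive (median 0.11), and in liver 4 were positive and 10 negative (median -0.04).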

How the data were processed

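For each mRNA array the authors deposited scanner output with spot and local background intensity values, not normalized (Agilent Feature Extraction 9.5.3.1 for lung, 10.1.1.1 for liver), and processed tables in log2 units, made by LOWESS per the methods. These tables served as an alternative. The miRNA arrays were not used here.

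Median spot intensities were analysed in R 4.3.3 with limma 3.58.1. Spots that the scanner software had marked as outliers were dropped, the background was corrected with normexp (offset 50), Cy5 over Cy3 ratios were normalized by loess within each array with control spots at weight 0, and the spots of each feature were then averaged. Comparisons used limma's lmFit and eBayes, 2-sided, with Benjamini-Hochberg adjustment over all features and a threshold of 0.05. A gene was counted through its feature with the highest mean intensity over the 28 arrays, and 24 members had several features. Intervals are 95% intervals of the fit. Correlations used permutation tests in SciPy 1.17.1 (100000 resamples, and exact enumeration within groups), 2-sided, and figures were drawn with matplotlib 3.10.9. The Cy3 channel was tested alone after quantile normalization between arrays. Scripts were first tested on simulated data. Precision is limited by the number of arrays.

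The members and all gene lists were chosen with earlier results of these data known. In each exposure comparison the 5 highest and 5 lowest members above background were named, in each tissue comparison the 10 highest and 10 lowest called, and always the tissue forms of complex IV and the core or catalytic subunits. Of these genes, 1 enters all counts and medians but is not reported here by itself. Lung and liver of the same mouse were paired by the mouse number in the labels, and the methods take both tissues from each animal. Deviations from the group means correlated between the tissues of the 12 shared mice at -0.07 to 0.22 (median 0.07), and at over 0.1 for 4 of them. The p-values measure the spread between single mice, except where each group has 1 array and the spread comes from other features.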

Additional observations from a re-analysis of the deposited data

Results flagged for a closer look

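Single livers stood apart from their group by Dixon's criterion for 4 members, all among control livers. The Cox7a2 ratio of mouse 26 was 0.16, while the others were at 0.47 to 0.60. For Cox7b the same mouse was at 0.77 and the others at 1.13 to 1.33. Ndufa13 was at 1.54 in mouse 27 and at 1.05 to 1.19 in the others. Sdha was at 2.04 in mouse 45 and at 2.71 to 2.92 in the others. In all, 165 groups of values over 45 named members were examined, and chance marks about 1 in 20 such groups.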

How the results depend on the processing

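No member was called in either exposure comparison or in the test of their difference under any alternative listed here, nor in either exposure comparison without any single array, which was not run for the test of their difference. Members called between the tissues numbered 64 to 75 in control and 66 to 75 in exposed mice. With the main processing 57.8% and 61.1% of all features were called, and the shares under the alternatives are not given here. The member counts alone thus do not show how far a result about the members depends on the processing. Median member differences without single arrays were -0.00047 to 0.066 in lung and -0.059 to -0.024 in liver. The medians moved more with the handling of background and scale. With normexp fitted on all spots they were 0.073 in liver, -0.050 for lung minus liver exposure effects and -0.84 for control lung against liver. Median centering gave 0.17 in lung, 0.18 in liver, -1.72 for control and -1.68 for exposed tissues. For the control and exposed tissues they were -1.26 and -1.26 with the scanner's processed signals, which moved the median of all features to -0.11 and -0.14, -0.70 and -0.67 with the authors' table, -0.87 and -0.81 with marked backgrounds replaced, and -0.90 and -0.79 in Cy5 alone. Within lung block 1 the median was -0.10. All features called in lung fell from 83 to 12 with normexp on all spots and to 4 with median centering, and were 133 with block as a random effect. For lung minus liver effects they fell from 58 to 5, 12 and, with the processed signals, 34. The causes were not tested.

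Signs turned for some members, of which only the tissue differences of Atp5l had been called with the main processing. Under median centering the exposure differences in lung were 0.053 for Cox7a2, 0.065 for Ndufb3 and 0.062 for Ndufc2, and in liver 0.13 for Atp5c1, 0.12 for Ndufa12, 0.077 for Ndufa13, 0.091 for Uqcrc2 and 0.10 for Uqcrh. There the tissue differences of Atp5l turned to -0.48 in control and -0.61 (called) in exposed mice, and those of Cox7a2l to -0.19 and -0.31. Cox6a2 in lung was at 0.036 with the authors' table and 0.046 with backgrounds replaced, and Ndufs5 at 0.0078 with the latter. The tissue differences of Cox8a were 0.25 and 0.13 with normexp on all spots, 0.045 and 0.093 with the authors' table and 0.061 and 0.17 (called) with backgrounds replaced. Cox8c, not well above background on any array, was in control tissues at 0.0030 with normexp on all spots, 0.051 without background correction, 0.051 with the authors' table, 0.053 in Cy5 alone and 0.00081 with shared mice alone. In liver, Atp5g3 (-0.36) and Uqcrq (-0.023) turned in Cy5 alone, Uqcrq (-0.034) without control mouse 32 and Sdha (-0.030) without control mouse 45.

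Pairing lung and liver by mouse as a replicate block (consensus correlations 0.04 to 0.06) left 71 and 70 members called between control and between exposed tissues, with medians of -1.04 and -0.93, and 0 called for the lung minus liver effects, with a median of 0.08. With 2 arrays or fewer unmarked in a group, as for Cox6a1, Ndufs5 and Ndufb8, and in liver for Cox6c, Cox8a and Uqcrq, little can be said.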
